A study of Mus musculus with 4 samples.

Results

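The genes described here are 6 antiviral effectors that type I interferon induces, Rsad2 (viperin), Cmpk2, Mx1, Mx2, Bst2 (tetherin) and Isg20, chosen by name and matched by symbol. They were chosen with earlier results of these data known. Of these 6, 4 (Rsad2, Cmpk2, Bst2 and Isg20) were measured among the 32285 genes of the count matrices, while Mx1 and Mx2 were not analysed here. The cells were a CD11c+ MHC-II+ sort from B16-F10 melanomas grown under the skin of C57BL/6 mice, started with 500000 tumor cells and injected with adenovirus into the tumor on day 12. The 4 groups were Ad-MEM40 (treatment label ISF35, an engineered CD40 ligand), Ad-mIFNB (mouse interferon beta), Ad-COMBO (ISF35 and mIFNB given together) and Ad-Null (a control adenovirus), so every group received virus, and no untreated tumor was compared. Each group was 1 library of 10x Genomics 3′ single-cell RNA sequencing, made from the pooled cells of 3 tumors. With 1 library per treatment there is no replicate error and no test: each comparison below is between libraries, and the 95% intervals given in brackets cover counting error only.

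Interferon beta signals through a 2-chain receptor to a transcription complex that holds STAT2 and IRF9 and binds the promoters of antiviral genes. Viperin, the product of Rsad2, is a radical SAM enzyme that turns CTP into a chain-terminating nucleotide, and Cmpk2, its genomic neighbour, encodes a mitochondrial nucleotide kinase that can supply CTP. Bst2 encodes tetherin, a membrane protein that holds budding virions on the cell surface and is a known surface marker of mouse plasmacytoid dendritic cells (pDC). Isg20 encodes a 3′ to 5′ exonuclease of RNA. Mx1 and Mx2 encode dynamin-like GTPases that block incoming virus, and in common laboratory mouse strains both genes carry inactivating changes.

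Rsad2 and Cmpk2 are neighbours that point away from each other. In GRCm38, with GENCODE M21 genes, Rsad2 spans chromosome 12 from 26442746 to 26456452 on the minus strand and Cmpk2 spans chromosome 12 from 26469204 to 26479837 on the plus strand. Their starts are 12752 bases apart, with 0 annotated genes between them. Bst2 lies on chromosome 8 from 71534255 to 71537456 (minus strand) and Isg20 on chromosome 7 from 78913424 to 78920396 (plus strand). Mx1 (chromosome 16, 97447035 to 97462907) is protein coding in GENCODE and a transcribed pseudogene in RefSeq, which gives the same type to Mx2 (chromosome 16, 97535308 to 97560900).

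The promoters below are shown because all 4 measured genes were higher in the interferon beta libraries, while their start regions differ in this motif. Each line is the RefSeq window of GRCm38.p6 on the gene's own strand, 5′ to 3′, from 250 bases before to 50 bases after the start, and capitals mark the core of the interferon-stimulated response element, searched on both strands as GAAA, any 2 bases and GAAA again. The Rsad2 window (chr12:26456403-26456702, minus strand) held 1 match, on the opposite strand, with its first base at position -120 from the start.
Rsad2: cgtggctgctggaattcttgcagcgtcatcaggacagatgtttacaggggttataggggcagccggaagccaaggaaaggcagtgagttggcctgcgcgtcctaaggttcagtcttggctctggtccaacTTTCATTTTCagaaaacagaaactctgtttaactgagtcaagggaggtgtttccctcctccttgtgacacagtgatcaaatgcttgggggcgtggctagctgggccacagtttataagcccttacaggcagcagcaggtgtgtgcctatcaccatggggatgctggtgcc
The Bst2 window (chr8:71537423-71537722, minus strand) held 2 matches on the gene's strand, at positions -130 and -124, which overlap each other.
Bst2: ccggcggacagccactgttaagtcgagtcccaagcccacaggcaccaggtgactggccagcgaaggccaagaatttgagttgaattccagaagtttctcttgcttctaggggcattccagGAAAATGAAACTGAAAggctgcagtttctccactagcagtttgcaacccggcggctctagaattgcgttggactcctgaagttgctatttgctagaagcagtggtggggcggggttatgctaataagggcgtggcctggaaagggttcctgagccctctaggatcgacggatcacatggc
The Cmpk2 window (chr12:26468965-26469264, plus strand) held 0 matches.
Cmpk2: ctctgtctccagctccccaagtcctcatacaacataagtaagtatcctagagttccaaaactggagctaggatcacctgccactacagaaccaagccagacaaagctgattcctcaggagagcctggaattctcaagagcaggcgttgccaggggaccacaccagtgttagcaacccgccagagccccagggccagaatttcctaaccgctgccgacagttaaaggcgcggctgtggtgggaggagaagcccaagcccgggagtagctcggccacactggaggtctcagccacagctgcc
None of the 3 Isg20 windows held a match. Among all 32851 RefSeq windows of this length, 1131 (3.44%) held at least 1 match and 74 (0.225%) held 2 or more. A match describes the letters of this window only, and its absence says nothing about binding elsewhere.

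A barcode was kept with 500 or more detected genes and 10% or less of its UMIs from mitochondrial genes, which left 15656 (Ad-MEM40), 1810 (Ad-mIFNB), 671 (Ad-COMBO) and 8745 (Ad-Null), 26882 in all. Their median depth ranged between 9483 and 15277 UMIs per cell. A UMI of the MHC-II gene H2-Ab1 was seen in 91.4% to 99.9% of kept cells, and one of Itgax, which encodes CD11c, in 40.9% to 60.7%. The label calls the cells dendritic cells (DC), but marker genes also picked out others. A cell was gated when at least 3 markers of a class had a UMI and its marker score led that of every other class by at least 0.5 SD. This gave 3001 cDC1-like, 2300 cDC2-like, 1600 mature DC-like and 665 pDC-like cells, beside 4195 macrophage-like, 1063 monocyte-like and 472 melanoma-like cells, and left 13540 (50.4%) ungated. None of the 6 genes was a marker, and a class was compared where both libraries held at least 50 of its cells. Cell barcodes were shared by at most 41 kept cells of any pair of libraries.

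All 4 measured genes were far higher in both libraries that received the interferon beta virus, and none passed 1.5-fold with Ad-MEM40 alone. Levels (CPM) are the UMIs of a gene summed over all kept cells of a library, scaled to 1000000 UMIs in all.

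Rsad2 stood at 136 CPM in Ad-MEM40, 855 CPM in Ad-mIFNB and 1048 CPM in Ad-COMBO, against 104 CPM in Ad-Null. Cmpk2 stood at 18.4 CPM in Ad-MEM40, 101 CPM in Ad-mIFNB and 112 CPM in Ad-COMBO, against 15.4 CPM in Ad-Null. Both nucleotide genes had their highest sum in Ad-COMBO and their lowest in Ad-Null, but the order of Ad-COMBO and Ad-mIFNB turned for Cmpk2 when cells were weighted equally (ratio -0.01). Bst2 stood at 515 CPM in Ad-MEM40, 1044 CPM in Ad-mIFNB and 1109 CPM in Ad-COMBO, against 453 CPM in Ad-Null. Isg20 stood at 55.9 CPM in Ad-MEM40, 313 CPM in Ad-mIFNB and 276 CPM in Ad-COMBO, against 55.4 CPM in Ad-Null. Isg20 was the one member with its highest level in Ad-mIFNB rather than in Ad-COMBO.

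**Figure D1:**
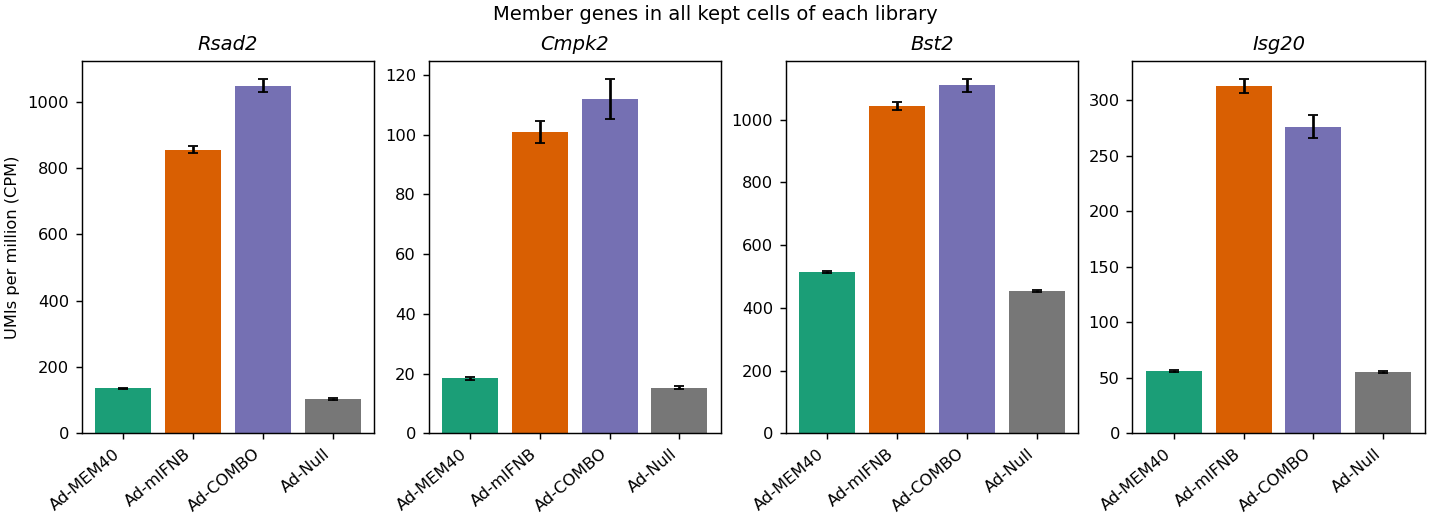
CPM (y axis) of the 4 measured genes over all kept cells of each library (x axis), with bars for the level and whiskers for the exact 95% Poisson interval. For each gene the Ad-mIFNB and Ad-COMBO bars stand well above the Ad-MEM40 and Ad-Null bars, as with Rsad2 at 855 and 1048 CPM against 136 and 104 CPM.

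Ratios are log2 ratios with 5 CPM added to both sides, which lowers them for low genes such as Cmpk2, and a gene counts as higher or lower past 1.5-fold. In Ad-mIFNB against Ad-Null all 4 members were higher, where 2.96% of the 13999 genes compared were higher. The ratio was 2.98 for Rsad2, which ranked 5 from the top of those genes, 2.40 for Isg20 (rank 12), 2.38 for Cmpk2 (rank 13) and 1.19 for Bst2 (rank 93). In Ad-COMBO against Ad-Null all 4 were higher as well, where 6.65% of 13863 genes were. There Rsad2 reached 3.28 (rank 2), Cmpk2 2.52 (rank 11), Isg20 2.22 (rank 16) and Bst2 1.28 (rank 189). Both comparisons share the Ad-Null library.

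In Ad-MEM40 against Ad-Null, 0 of the 4 members passed 1.5-fold in either direction, where 0.859% of 15131 genes were higher and 0.377% lower. The ratios were 0.38 (0.34 to 0.41) for Rsad2, 0.20 (0.12 to 0.28) for Cmpk2, 0.18 for Bst2 and 0.01 for Isg20. Within gated classes the Isg20 ratio ran between -0.15 (-0.41 to 0.11) in mature DC-like cells and 0.45 (0.21 to 0.69) in melanoma-like cells. In Ad-COMBO against Ad-mIFNB, 0 of 4 passed, where 2.96% of 11510 genes were higher and 0.712% lower, with ratios of 0.29 for Rsad2, 0.14 for Cmpk2, 0.09 for Bst2 and -0.18 for Isg20. In Ad-COMBO against Ad-MEM40 all 4 were higher, where 6.05% of genes were, between 1.10 for Bst2 and 2.90 for Rsad2. Without replicates, differences of the size seen between Ad-COMBO and Ad-mIFNB, or between Ad-MEM40 and Ad-Null, cannot be told apart from differences between pools of tumors.

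Within the gated classes the 2 interferon beta libraries stood above Ad-Null for nearly every member. In Ad-mIFNB all 4 members were higher in cDC1-like cells, where 3.58% of genes were, in cDC2-like cells (3.06%), in mature DC-like cells (5.73%) and in macrophage-like cells (3.59%). In pDC-like cells, where 7.08% of genes were higher, 3 of 4 were, and Bst2 was the exception. In Ad-COMBO all 4 were higher in cDC1-like cells (7.19% of genes), mature DC-like cells (12.5%) and macrophage-like cells (6.91%), while its 14 cDC2-like, 25 pDC-like and 3 monocyte-like cells were too few to compare. In Ad-MEM40, 0 of 4 were higher in 6 of the 7 classes, namely cDC1-like (0.517% of genes higher), macrophage-like (0.488%), pDC-like (1.49%), cDC2-like (0.299%), mature DC-like (2.1%) and melanoma-like cells (0.834%). The exception was Rsad2 in monocyte-like cells, where 2.59% of genes were higher. It stood at 186 CPM (177 to 196) in Ad-MEM40 and 120.1 CPM (112 to 128) in Ad-Null, a ratio of 0.61, which was 0.45, and so not called, when cells were weighted equally.

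Among the classes with at least 50 cells in a library, Rsad2 had its highest level in macrophage-like cells and its lowest in cDC1-like cells in each of the 4 libraries. Ad-COMBO had only 3 such classes, and its 14 cDC2-like cells stood at 1985 CPM and its 25 pDC-like cells at 304 CPM. In macrophage-like cells it stood at 190.3 CPM in Ad-MEM40, 1078 CPM in Ad-mIFNB and 1533 CPM in Ad-COMBO, against 146 CPM in Ad-Null. In cDC1-like cells it stood at 39.9 CPM in Ad-MEM40, 420.0 CPM in Ad-mIFNB and 422 CPM in Ad-COMBO, against 35.5 CPM in Ad-Null. In Ad-MEM40 the intervals of macrophage-like and monocyte-like cells (186 CPM) overlapped, and in Ad-Null melanoma-like (128 CPM), mature DC-like (125 CPM) and monocyte-like cells (120.1 CPM) overlapped in their intervals. Of the classes compared, the one with the least Rsad2 had the largest ratio. In Ad-mIFNB against Ad-Null the ratio was 3.39 (3.24 to 3.54) in cDC1-like cells, 3.14 (3.01 to 3.27) in cDC2-like cells, 2.85 (2.54 to 3.15) in pDC-like cells, 2.84 (2.74 to 2.94) in macrophage-like cells and 2.49 (2.33 to 2.66) in mature DC-like cells. In Ad-COMBO against Ad-Null it was 3.40 (3.23 to 3.57) in cDC1-like cells, 3.35 (3.24 to 3.46) in macrophage-like cells and 2.76 (2.59 to 2.94) in mature DC-like cells. The intervals of cDC1-like and macrophage-like cells thus lay apart in Ad-mIFNB and overlapped in Ad-COMBO.

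Cmpk2 was also highest in macrophage-like cells in 3 libraries and in monocyte-like cells of Ad-MEM40. In macrophage-like cells it stood at 23.7 CPM in Ad-MEM40, 149 CPM in Ad-mIFNB and 244 CPM in Ad-COMBO, against 22.0 CPM in Ad-Null. It was the one member to pass 1.5-fold in Ad-COMBO against Ad-mIFNB within a class. The macrophage-like ratio was 0.69 (0.41 to 0.97), from 69 and 138 cells, where 4.22% of genes were higher, and it was 0.52, and so not called, when cells were weighted equally. Rsad2 in the same cells had a ratio of 0.51 (0.39 to 0.62). In cDC1-like cells and mature DC-like cells 0 of 4 members passed in that comparison, where 3.42% and 7.29% of genes were higher.

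**Figure D2:**
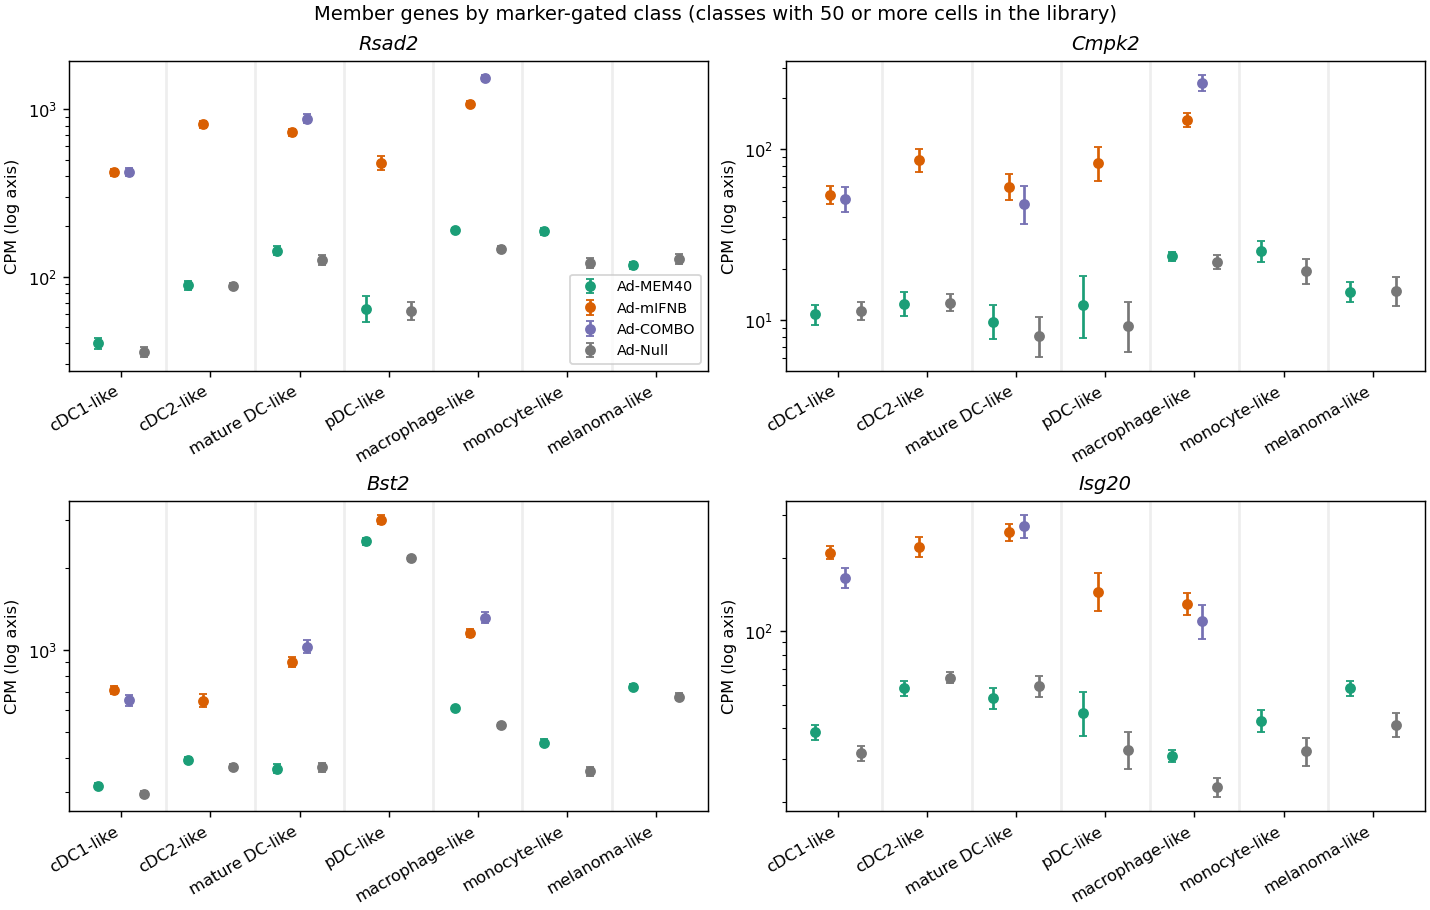
CPM (log axis, y) of the 4 measured genes by marker-gated class (x axis), with points for each library that holds at least 50 cells of the class and whiskers for the exact 95% Poisson interval. Among the classes plotted for a library, Rsad2 is highest in macrophage-like cells and lowest in cDC1-like cells, Isg20 is lowest in macrophage-like cells, and Bst2 is highest in pDC-like cells where these are plotted.

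Bst2 was highest in pDC-like cells of each library. In pDC-like cells it stood at 2502 CPM in Ad-MEM40 and 3006 CPM in Ad-mIFNB, against 2168 CPM in Ad-Null, and in the 25 pDC-like cells of Ad-COMBO at 4676 CPM. Bst2 was left out of the pDC markers, so this level was not used to gate the cells. The lowest class of Ad-Null, cDC1-like cells, stood at 294 CPM, which puts pDC-like cells 7.37 times higher in that library. The pDC-like ratio in Ad-mIFNB against Ad-Null was 0.47 (0.39 to 0.56), below those of macrophage-like cells, 1.12 (1.05 to 1.20), and mature DC-like cells, 1.27 (1.15 to 1.39). It was 0.10 without doublets called by Scrublet.

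Among the classes with at least 50 cells, Isg20 was lowest in macrophage-like cells of each library, where Rsad2 was highest. In some smaller classes it stood lower, at 59.2 CPM in 16 monocyte-like and 46.3 CPM in 11 melanoma-like cells of Ad-mIFNB and at 87.4 CPM in the 25 pDC-like cells of Ad-COMBO. In other small classes of Ad-COMBO it stood higher, at 508 CPM in 3 monocyte-like, 253 CPM in 3 melanoma-like and 209 CPM in 14 cDC2-like cells. In macrophage-like cells it stood at 30.7 CPM in Ad-MEM40, 130 CPM in Ad-mIFNB and 110 CPM in Ad-COMBO, against 22.9 CPM in Ad-Null. The top class was mature DC-like cells in Ad-mIFNB (254 CPM) and Ad-COMBO (269 CPM), and cDC2-like cells in Ad-MEM40 (58.3 CPM) and Ad-Null (64.3 CPM). The intervals of the top neighbours overlapped in Ad-MEM40, Ad-mIFNB and Ad-Null, as did those of macrophage-like cells and pDC-like cells (145 CPM) in Ad-mIFNB. In Ad-COMBO they lay apart, with mature DC-like cells at 269 CPM (242 to 299) and cDC1-like cells at 165 CPM (150 to 181). Ratios in Ad-mIFNB against Ad-Null ran between 1.70 (1.5 to 1.91) in cDC2-like cells and 2.55 (2.38 to 2.73) in cDC1-like cells.

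The ungated cells held still more Isg20 than any class compared. It stood there at 74.7 CPM in Ad-MEM40, 434 CPM in Ad-mIFNB and 448 CPM in Ad-COMBO, against 75.7 CPM in Ad-Null. Rsad2 in ungated cells stood at 140.1 CPM in Ad-MEM40, 1031 CPM in Ad-mIFNB and 1310.5 CPM in Ad-COMBO, against 116 CPM in Ad-Null. Ungated cells made up 50.6% of Ad-MEM40, 58.7% of Ad-mIFNB and 45% of Ad-COMBO, against 48.7% of Ad-Null. Their part in the summed differences was not tested, but in them all 4 members stood higher than in Ad-Null, both in Ad-mIFNB, where 3.65% of genes did, and in Ad-COMBO, where 7.56% did.

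Melanoma-like cells could be compared between Ad-MEM40 (347 cells) and Ad-Null (111 cells). In these cells Bst2 stood at 731 CPM in Ad-MEM40 and 671 CPM in Ad-Null, and Rsad2 at 117 CPM in Ad-MEM40 and 128 CPM in Ad-Null. Isg20 stood at 58.2 CPM in Ad-MEM40 and 41.3 CPM in Ad-Null, a ratio of 0.45 that did not pass 1.5-fold. The same cells held 62.2 CPM of Ptprc in Ad-MEM40 and 49.6 CPM in Ad-Null, against 528 and 447 CPM in the macrophage-like cells of the same libraries. Ptprc encodes the leukocyte antigen CD45. Whether leukocyte RNA in these barcodes contributes to the member levels was not tested.

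Cell by cell, more cells held each gene in the interferon beta libraries, and Rsad2-rich cells were also present in Ad-Null. Each kept cell with at least 1000 UMIs was thinned to 1000 UMIs so that libraries compare at equal depth. This left out 177 cells of Ad-MEM40, 26 of Ad-mIFNB, 6 of Ad-COMBO and 136 of Ad-Null. An Rsad2 UMI was then found in 10.2% (9.77 to 10.7) of Ad-MEM40 cells, 42.2% (39.9 to 44.5) of Ad-mIFNB cells and 49.0% (45.2 to 52.9) of Ad-COMBO cells, against 8.47% (7.89 to 9.08) of Ad-Null cells. Bst2 was found in 34.5% of Ad-MEM40, 57.0% of Ad-mIFNB and 49.9% of Ad-COMBO cells, against 31.8% of Ad-Null cells. Isg20 was found in 5.03% of Ad-MEM40, 23.4% of Ad-mIFNB and 16.8% of Ad-COMBO cells, against 4.87% of Ad-Null cells. For Bst2 the share was lower in Ad-COMBO than in Ad-mIFNB although its CPM was higher, so no order is read between those libraries. Cmpk2 was found in 1.89% of Ad-MEM40, 7.79% of Ad-mIFNB and 8.57% of Ad-COMBO cells, against 1.48% of Ad-Null cells.

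Free RNA gives UMIs in cells that do not make a gene. As a gauge, the pDC gene Siglech was found in 0.034% of macrophage-like cells in Ad-MEM40, 0% in Ad-mIFNB and Ad-COMBO and 0.197% in Ad-Null. The abundant macrophage gene C1qb was found in 6.69% of cDC1-like cells in Ad-MEM40, 1.66% in Ad-mIFNB and 2.29% in Ad-COMBO, against 5.11% in Ad-Null. Siglech and C1qb were themselves gate markers, so a cell with their UMIs was less likely to enter another class. Their shares can therefore understate free RNA. The Rsad2 share of cDC1-like cells was 3.25% in Ad-MEM40, 24.5% in Ad-mIFNB and 32.1% in Ad-COMBO, against 3.67% in Ad-Null. Over all thinned cells, C1qb was the more abundant gene in Ad-MEM40 and Ad-Null. It was the less abundant one in Ad-mIFNB (0.508 against 0.885 Rsad2 UMIs per cell) and Ad-COMBO (0.516 against 1.105). Its share is therefore no ceiling for Rsad2 in Ad-mIFNB and Ad-COMBO, and it was not used as one in Ad-MEM40 and Ad-Null. At the same thinning, cDC1-like cells of Ad-Null held 0.0421 Rsad2 UMIs per cell, against 0.122 over all kept cells of that library, and 0.0565 C1qb UMIs per cell, against 0.700 over all kept cells. The part of free RNA in the low Rsad2 level of these cells was not tested. Median depths of cDC1-like cells were 12405 UMIs in Ad-MEM40 and 19334 UMIs in Ad-mIFNB.

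At 2000 UMIs per cell, the Rsad2 UMIs of Ad-Null sat in few cells. Thinning to this depth left out 1200 cells of Ad-MEM40, 126 of Ad-mIFNB, 59 of Ad-COMBO and 359 of Ad-Null, which held fewer UMIs. The tenth of cells with the most Rsad2 held 76.7% of its UMIs in Ad-MEM40, 44.3% in Ad-mIFNB and 46.4% in Ad-COMBO, against 83.5% in Ad-Null. Such a share rises as fewer cells hold a UMI, and 85.9% of Ad-Null cells held none of Rsad2. For Cmpk2 and Isg20, which 97.1% and 90.3% of Ad-Null cells lacked, it was 100%. The difference between libraries is thus not separate from the difference in detection. Cells with 3 or more Rsad2 UMIs were 2.53% of Ad-MEM40, 25% of Ad-mIFNB and 28.9% of Ad-COMBO, against 1.96% of Ad-Null. The highest single cell had 29 UMIs in Ad-MEM40, 23 in Ad-mIFNB and 44 in Ad-COMBO, against 32 in Ad-Null. The top cell of Ad-Null thus lay within the range of the top cells of the treated libraries. A maximum grows with the number of cells, which was 14456 in Ad-MEM40, 1684 in Ad-mIFNB, 612 in Ad-COMBO and 8386 in Ad-Null. The top cell of Ad-Null was macrophage-like. Among the macrophage-like cells of Ad-Null, with that cell included, the variance of Rsad2 UMIs was 6.59 times their mean, against 1.27 times for Bst2. Cells without a UMI of any of the 4 genes were 35.4% of Ad-MEM40, 9.74% of Ad-mIFNB and 9.31% of Ad-COMBO, against 39.2% of Ad-Null. Cells with all 4 genes were 0.249% of Ad-MEM40, 6.65% of Ad-mIFNB and 3.92% of Ad-COMBO, against 0.203% of Ad-Null.

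**Figure D3:**
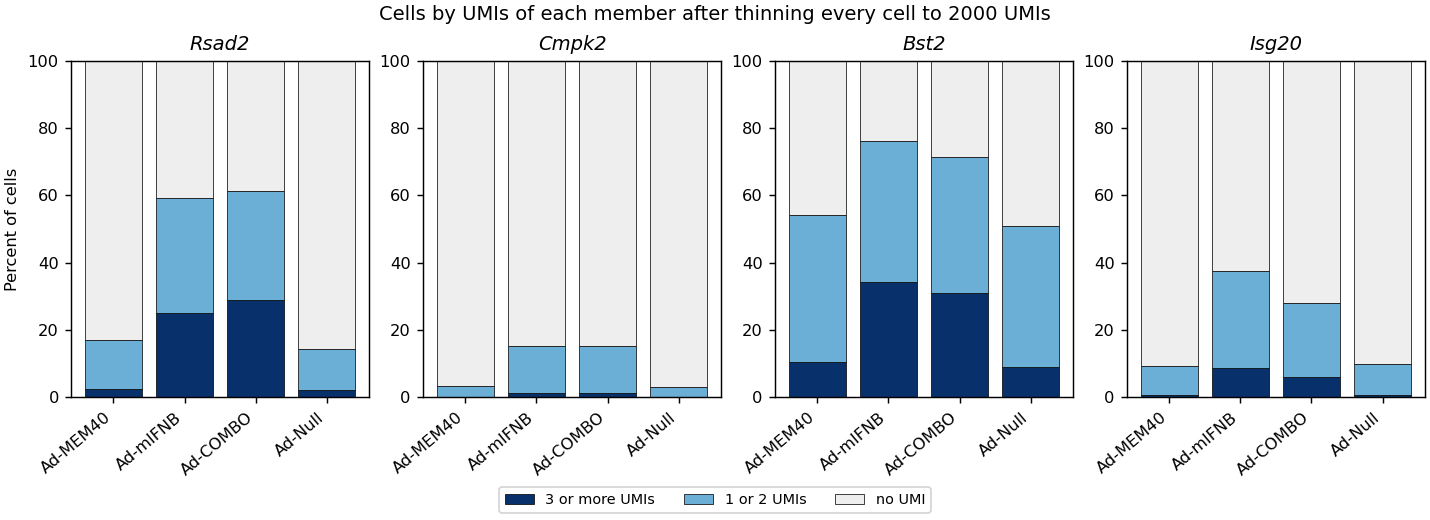
Percent of cells (y axis) with no UMI, 1 or 2 UMIs and 3 or more UMIs of each gene in each library (x axis). Cells with at least 2000 UMIs are shown, each thinned to 2000 UMIs. For Rsad2 the dark part, cells with 3 or more UMIs, covers 25% of Ad-mIFNB and 28.9% of Ad-COMBO, against 1.96% of Ad-Null.

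Over the kept cells of each library that had at least 2000 UMIs, Cmpk2 was detected more often in cells with Rsad2 than in cells without it. At 2000 UMIs per cell, Cmpk2 was detected in 8.91% of Rsad2-positive and 2.24% of Rsad2-negative cells of Ad-MEM40, and in 21.5% and 6.27% of those of Ad-mIFNB. The shares were 18.9% of Rsad2-positive and 8.9% of Rsad2-negative cells of Ad-COMBO, and 8.7% and 1.96% of those of Ad-Null. Within macrophage-like cells of Ad-mIFNB the shares were 33.7% of Rsad2-positive and 5.13% of Rsad2-negative cells, but some classes had no such excess. The shares were 0% of 18 Rsad2-positive and 7.5% of Rsad2-negative pDC-like cells of Ad-mIFNB, where 3 cells held Cmpk2. They were 0% of 22 and 3.32% in those of Ad-MEM40, where 8 cells held Cmpk2. The pDC-like cells of Ad-Null went the other way, with 3.45% of 29 and 1.44%, where 5 cells held Cmpk2. In cDC1-like cells of Ad-COMBO, where 14 cells held Cmpk2, the shares were 10.5% and 11.4%. In melanoma-like cells they were 3.03% and 3.02% in Ad-MEM40 (10 cells with Cmpk2) and 0% and 3.53% in Ad-Null (3 cells with Cmpk2). With so few cells, a missing excess is not read as a difference between classes. These are descriptions over cells that share a library.

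The balance of the pair differed between classes. The number of Rsad2 UMIs per Cmpk2 UMI is compared between classes and libraries only, since the 2 genes may be captured unequally. In mature DC-like cells it was 14.6 in Ad-MEM40 (11.5 to 18.7), 12.1 in Ad-mIFNB (10.1 to 14.5) and 18.5 in Ad-COMBO (14.3 to 24.3), against 15.5 in Ad-Null (11.8 to 20.7). In macrophage-like cells it was 8.03 in Ad-MEM40 (7.51 to 8.60), 7.23 in Ad-mIFNB (6.54 to 8.01) and 6.29 in Ad-COMBO (5.61 to 7.07), against 6.64 in Ad-Null (6.02 to 7.33). Mature DC-like cells therefore stood above macrophage-like cells in each library, beyond counting error. In cDC1-like cells it was 3.69 in Ad-MEM40 (3.17 to 4.31), 7.75 in Ad-mIFNB (6.80 to 8.86) and 8.26 in Ad-COMBO (6.90 to 9.95), against 3.13 in Ad-Null (2.73 to 3.6), where all kept cells stood at 6.75. Of these 3 classes, only in cDC1-like cells did the intervals of both interferon beta libraries lie wholly above that of Ad-Null. The shift was not particular to these cells. Ungated cells also lay higher, with intervals of 9.5 to 11.6 (Ad-COMBO) and 8.3 to 9.2 (Ad-mIFNB), against 6.7 to 7.6 (Ad-Null). All kept cells did too, with 8.8 to 10.0 (Ad-COMBO) and 8.2 to 8.8 (Ad-mIFNB), against 6.5 to 7.0 (Ad-Null). So did cDC2-like cells of Ad-mIFNB (8.1 to 11.1, against 6.1 to 7.9), while its pDC-like interval overlapped that of Ad-Null. Ungated cells that scored highest for cDC1 had no such shift. They held 994 Rsad2 and 175 Cmpk2 UMIs in Ad-mIFNB (80 cells), against 462 and 79 in Ad-Null (428 cells). In Ad-mIFNB these ungated cells stood at 941 CPM of Rsad2 and 166 CPM of Cmpk2, above the gated cDC1-like cells, so the cDC1-like values depend on the gate. Cmpk2 in cDC1-like cells was 54.2 CPM in Ad-mIFNB and 51.1 CPM in Ad-COMBO, against 11.3 CPM in Ad-Null, and its ratios of 1.86 and 1.78 were the smallest Cmpk2 ratios of the classes compared.

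**Figure D4:**
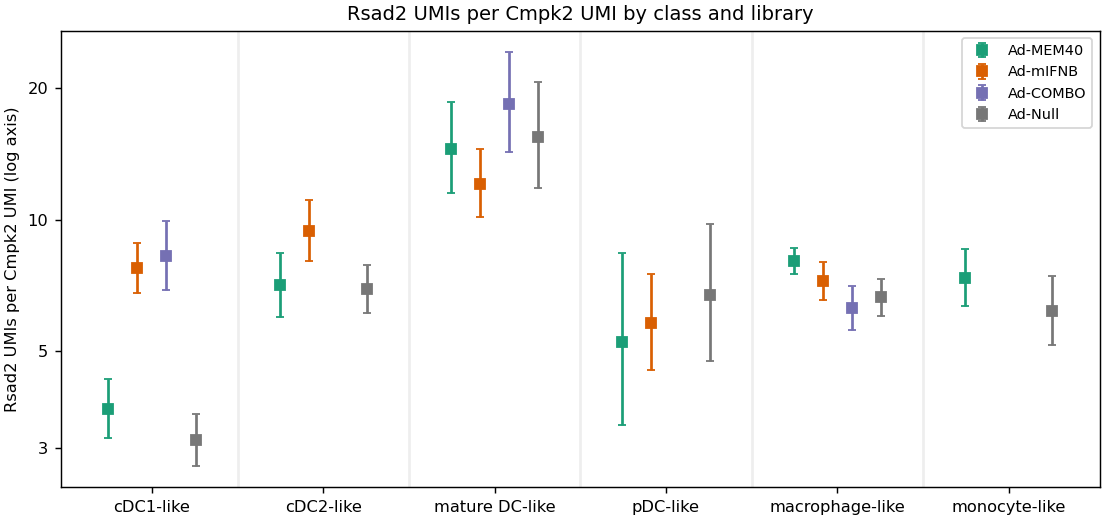
Rsad2 UMIs per Cmpk2 UMI (log axis, y) by class (x axis) and library, with squares for the ratio of summed UMIs and whiskers for its 95% interval. In cDC1-like cells Ad-mIFNB and Ad-COMBO lie at 7.75 and 8.26, against 3.13 in Ad-Null, while mature DC-like cells are the highest of the classes plotted for each library.

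The other genes of the interferon response were taken from 4 lists, on which the members do not appear. These lists were chosen with earlier results of these data known. For reference, 2.96% of all genes compared were higher in Ad-mIFNB and 6.65% in Ad-COMBO against Ad-Null. Of the 20 measured genes in the list of other interferon-induced effectors, 20 were higher in Ad-mIFNB against Ad-Null, with a median of 1.63, and 20 in Ad-COMBO, with a median of 1.78. Ifit3b and Ifit1, which encode proteins that bind viral RNA, had the highest ratios in Ad-mIFNB, 3.45 and 3.12, although Ifit3b is a near copy of Ifit3 and reads could be split between them. The lowest were Ifi35 (0.88) and Oas1a (0.73), which encodes an RNA-sensing oligoadenylate synthetase and has close paralogs. The Rsad2 ratio of 2.98 lay below those of Ifit3b and Ifit1, and the Bst2 ratio of 1.19 lay below the list's median. Of 14 measured sensors and relays, 8 were higher in Ad-mIFNB (median 0.70) and 9 in Ad-COMBO (median 0.85). Irf7, which amplifies interferon production, reached 1.98 in Ad-mIFNB and the RNA sensor Ifih1 1.66, whereas Traf6 had 0.01 and Tmem173, which encodes STING, -0.01.

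Of 16 other restriction factors, 11 were higher and 0 lower in Ad-mIFNB (median 0.67), and 10 were higher and 1 lower in Ad-COMBO (median 0.76), where 1.58% and 3.59% of all genes compared were lower. The highest in Ad-mIFNB were Nt5c3 (1.41) and Pml (1.24), and the lowest was Ifitm1, whose product blocks viral entry (-0.52). Ifitm1 was the gene that was lower in Ad-COMBO, at 369 CPM against 645 CPM in Ad-Null. It was also the leading gene of the ungated cells, whose share of each library is given above, and the part of class makeup in its ratio was not tested. Of the 7 genes of the receptor and its transcription complex, 3 were higher in Ad-mIFNB (median 0.26) and 3 in Ad-COMBO (median 0.39). Stat2 stood at 1.21 and Irf9 at 0.80 in Ad-mIFNB, while Jak1 (-0.06) and the receptor chain Ifnar1 (-0.17) did not pass. In Ad-MEM40 against Ad-Null, 0 genes of the 4 lists passed in either direction, and the lists' medians lay between 0.04 and 0.11. Over all genes compared the median ratio was 0.02 in Ad-MEM40, -0.02 in Ad-mIFNB and -0.01 in Ad-COMBO against Ad-Null. In Ad-COMBO against Ad-mIFNB, 1 effector (Oasl1, 0.62) and 1 sensor (Tlr3, 0.65) were higher, where 2.96% of all genes compared were. Both were named after their values were seen. Tlr3 was among the 10 leading genes of cDC1-like cells, which made up 13.4% of Ad-mIFNB and 19.5% of Ad-COMBO. The part of class makeup in the Tlr3 ratio was not tested.

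**Figure D5:**
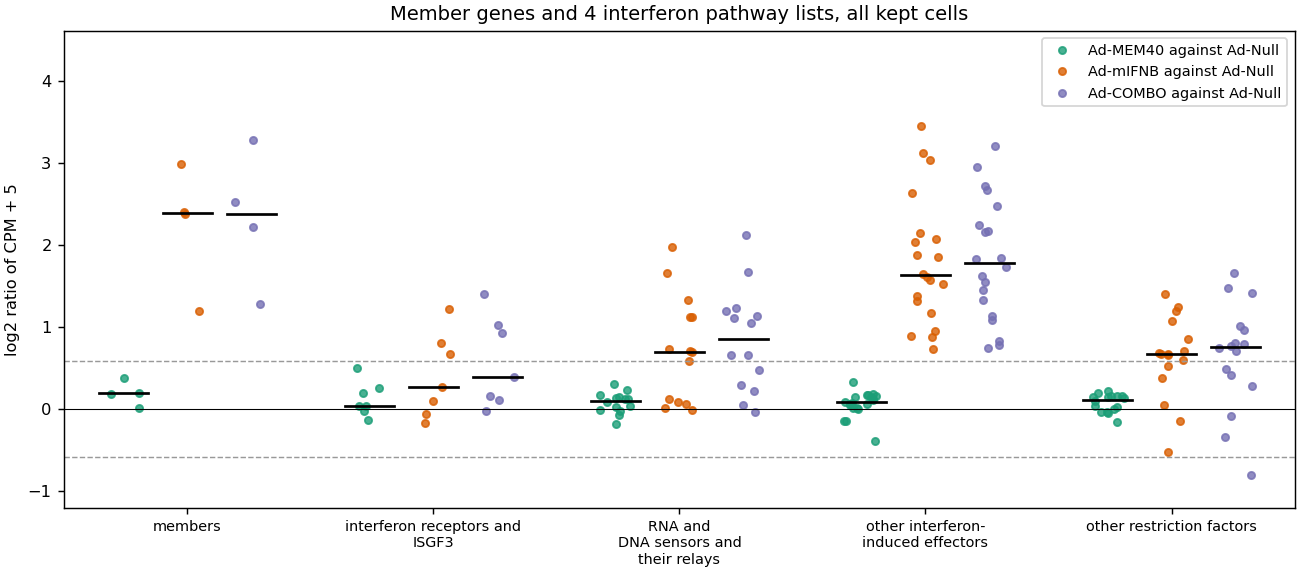
Log2 ratio of CPM + 5 (y axis) of the 4 members and of the genes of 4 interferon pathway lists (x axis) for each of the 3 treated libraries against Ad-Null, with a point for each gene, a black line for the median and dashed lines at 1.5-fold. The effectors of Ad-mIFNB and Ad-COMBO lie above the upper dashed line with medians of 1.63 and 1.78, and the Ad-MEM40 genes lie between the dashed lines.

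Across the 22 library and class sums of at least 50 cells, the genes whose log2 levels were most like each member differed. Xaf1 (r = 0.95), Phf11d (0.95) and Ifi213 (0.94) were most like Rsad2, with Cmpk2 at rank 5 of 5321 genes (0.93). Gm20559 (0.94), Rsad2 (0.93) and Dhx58 (0.90) were most like Cmpk2. Usp18 (0.95), Zc3hav1 (0.89) and Setdb2 (0.88) were most like Isg20. Bst2 had other company, with Ctso (0.90), Ppm1h (0.88) and Kansl1l (0.86), and its r with the other 3 members lay between 0.34 and 0.44. The 22 sums share 4 libraries, so these correlations describe the samples and carry no p.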

How the data were processed

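Single-cell RNA sequencing counts of 4 libraries, 1 per treatment and each from 3 pooled tumors, were used as deposited: whole UMI counts per gene and barcode, which the authors made with Cell Ranger 3.0, mm10 and Seurat 4.0, per the submitters' processing notes. The file headers give version 6.0.0 of Cell Ranger instead. Up to 10000 cells were loaded and 50000 reads per cell sequenced, per the labels. The matrices held more barcodes than that in Ad-MEM40 (18185, of which 15656 were kept) and in Ad-Null (11308, of which 8745 were kept). They held fewer in Ad-mIFNB (2076) and Ad-COMBO (954). The cause of the excess over the labelled cell number was not tested. The depth of kept cells was 181854752 (Ad-MEM40), 28541575 (Ad-mIFNB), 9748429 (Ad-COMBO) and 160828179 UMIs (Ad-Null), so that 3 UMIs correspond to 0.0165, 0.105, 0.308 and 0.0187 CPM. The members and lists were chosen with earlier results of these data known.

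UMIs were summed over cells and scaled to CPM with exact Poisson intervals at 95%. Genes with at least 50 UMIs over both libraries were compared. The class gate used z scores of log marker levels, with libraries weighted equally, and 4859 cells (18.1%) lay within 0.25 of a limit. Every gated class compared had at least 4 of its own markers among its 10 leading genes and 0 of another class. Of 154 list genes, 151 were found. Shares have Clopper-Pearson intervals. Doublets were kept, since the cell rule has no doublet call, and Scrublet (scanpy 1.11.5) served as an alternative. It marked 0% of Ad-MEM40, where 2278 cells (14.6%) with the highest scores were removed instead, 3 cells of Ad-mIFNB, 3 of Ad-COMBO and 1459 (16.7%) of Ad-Null. Named genes were the members, for each the 3 genes of highest Pearson r among genes with at least 50 CPM in 1 of the sums, and of each list the 2 highest and 2 lowest ratios in Ad-mIFNB against Ad-Null. Of the genes that meet this rule, 1 is not reported here. The ratio of whole-library sums was tested on simulated Poisson counts, for genes of at least 50 CPM over both libraries. Cmpk2 lay below that level in the comparisons with Ad-Null. Ratios within classes, Rsad2 UMIs per Cmpk2 UMI and differences between replicate libraries were not simulated. Python 3.11.15, numpy 2.4.6, pandas 2.3.3 and scipy 1.17.1 were used. Alternatives were a stricter cell filter, doublet removal, 1 CPM added, equal weight of cells or of classes, a changed denominator, a stricter gate and other thinning depths.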

Additional observations from a re-analysis of the deposited data

Results flagged for a closer look

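Barcodes that failed the cell filter, 2529 in Ad-MEM40, 266 in Ad-mIFNB and 283 in Ad-COMBO against 2563 in Ad-Null, were outside the comparisons above. In them the 4 members stood above Ad-Null in Ad-mIFNB and in Ad-COMBO, although the Isg20 intervals of Ad-COMBO and Ad-Null overlapped. Rsad2 in these barcodes stood at 154.7 CPM in Ad-MEM40, 704.1 CPM in Ad-mIFNB and 521.6 CPM in Ad-COMBO, against 119.6 CPM in Ad-Null. Cmpk2 stood at 90.81 CPM in Ad-mIFNB and 47.85 CPM in Ad-COMBO, against 14.48 CPM in Ad-Null. Bst2 stood at 394.5 CPM in Ad-mIFNB and 346.9 CPM in Ad-COMBO, against 272.2 CPM in Ad-Null. Isg20 stood at 83.36 CPM in Ad-mIFNB and 44.26 CPM (31.16 to 61.01) in Ad-COMBO, against 29.72 CPM (25.24 to 34.76) in Ad-Null. In Ad-MEM40 the same barcodes held less Bst2 than in Ad-Null, 220.7 CPM (208 to 233.9) against 272.2 CPM (258.3 to 286.7). Their Isg20 level of 27.53 CPM (23.18 to 32.47) overlapped in its interval with the 29.72 CPM of Ad-Null. In these barcodes the Bst2 and Isg20 levels were below those of the kept cells of each library, while Rsad2 in Ad-MEM40 and Ad-Null was above them.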

How the results depend on the processing

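No member's ratio called past 1.5-fold turned its direction under any alternative. The uncalled Cmpk2 ratio of Ad-COMBO against Ad-mIFNB ran between -0.01 and 0.36, with -0.01 under the mean of CPM over cells. In all kept cells, the Rsad2 ratio ranged between 2.85 and 3.03 in Ad-mIFNB and between 3.13 and 3.32 in Ad-COMBO against Ad-Null, that of Cmpk2 between 2.36 and 2.64 and between 2.35 and 2.79, that of Isg20 between 2.06 and 2.48 and between 1.99 and 2.30, and that of Bst2 between 0.78 and 1.21 and between 1.19 and 1.32. Under at least 1000 genes and at most 5% mitochondrial UMIs, 0 of 20 effectors passed in Ad-COMBO against Ad-mIFNB, as with classes weighted equally, where Oasl1 (1 gene) had passed. Without doublets, 1 member (Isg20) passed in pDC-like cells of Ad-MEM40 against Ad-Null. With doublets kept, 0 had, where 1.49% of genes were higher, from 272 and 308 cells. The share of all genes without doublets is not given here. With the mean of CPM over cells, 0 members passed in monocyte-like cells of Ad-MEM40 against Ad-Null and 0 in macrophage-like cells of Ad-COMBO against Ad-mIFNB, where 1 had in each. With classes weighted equally, 5 of 14 sensors passed in Ad-mIFNB against Ad-Null, where 8 had. The cause of these changes was not tested. An alternative chosen after seeing the data, without barcodes found in 2 or more libraries, moved 0 of these counts. Some classes fell under 50 cells under the stricter filter and then have no value.

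Thinning sets the size of the shares. At 2000 UMIs the shares were 17.1% (Ad-MEM40), 59.3% (Ad-mIFNB), 61.4% (Ad-COMBO) and 14.1% (Ad-Null) for Rsad2, 3.38%, 15.3%, 15.0% and 2.91% for Cmpk2, 54.3%, 76.3%, 71.4% and 50.8% for Bst2, and 9.38%, 37.5%, 28.1% and 9.70% for Isg20, in the same order. Without thinning they were 40.7%, 81.4%, 83.6% and 42.2% for Rsad2, 13.2%, 46.6%, 38.8% and 15.8% for Cmpk2, 85.0%, 91.6%, 87.8% and 88.5% for Bst2, and 29.5%, 69.2%, 53.1% and 38.4% for Isg20. No paired analysis was possible because each treatment has 1 library. Ad-COMBO, with 671 cells, had 3 classes of at least 50 cells.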
